A study of Homo sapiens with 6 samples.

Results

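The HOX gene clusters of human cells hold miRNA genes as well as the HOX transcription factor genes, and 8 mature miRNAs made from 6 of these miRNA genes were followed here in pancreatic cancer cells exposed to TGF-β. They were picked by name from the 2565 human miRNA probes of the array and are hsa-miR-10a-5p, hsa-miR-10a-3p, hsa-miR-10b-5p, hsa-miR-10b-3p, hsa-miR-196a-5p, hsa-miR-196b-5p, hsa-miR-615-3p and hsa-miR-615-5p. Panc-1 is a long-established human cell line that came from a pancreatic ductal adenocarcinoma (PDAC). It was cultured with TGF-β at 10 ng/mL for 72 h, a treatment used to induce the epithelial–mesenchymal transition (EMT), or without it at 0 ng/mL. RNA of 3 control and 3 TGF-β samples was hybridized to single-colour miRNA arrays, 1 array per sample, and between 1531 and 1787 miRNAs were detected per array. The labels do not say that the replicates came from separate cultures, so the p-values measure only the spread between these samples. The control arrays shared 1 slide and the TGF-β arrays a different slide, and an effect of the slide therefore cannot be told apart from that of TGF-β.

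HOX proteins set position along the body axis in the embryo, and many stay expressed in adult tissues and tumors. The miR-10 and miR-196 families lie between or inside HOX genes and repress several HOX mRNAs, and miR-10b is best known for its induction by the EMT factor TWIST and its role in the invasion of breast cancer cells. A precursor gives a 5p and a 3p strand, of which the cell usually keeps mainly a single guide strand, and the guide finds its targets by its seed, bases 2 to 8 from the 5′ end. miR-615 is encoded in the HOXC cluster and is unrelated in seed to the other families.

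The RefSeq (GRCh38.p14) sequences used here included 7 of the 8 miRNAs, all but miR-10b-5p, and these are shown to make clear which strands share a seed, marked in capitals.
miR-10a-5p: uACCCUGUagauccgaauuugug
miR-10a-3p: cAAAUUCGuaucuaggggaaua
miR-10b-3p: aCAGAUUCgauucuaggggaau
miR-196a-5p: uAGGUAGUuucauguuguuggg
miR-196b-5p: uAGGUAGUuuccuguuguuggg
miR-615-3p: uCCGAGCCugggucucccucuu
miR-615-5p: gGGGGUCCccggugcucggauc
let-7a-5p: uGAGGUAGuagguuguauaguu
The sequences of miR-196a-5p and miR-196b-5p shared their seed and differed only by A12C, counted from the 5′ end with the base of miR-196a-5p first, so their probes may bind each other's target. The miR-196 seed also stood in let-7a-5p, shifted to bases 3 to 9. The 3p strands of miR-10a and miR-10b had different seeds but shared a run of 11 bases outside them. Their 5p strands could not be compared in this way without the sequence of miR-10b-5p. Whether the probes of miR-10a-5p and miR-10b-5p bind each other's target was therefore not tested.

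In RefSeq, MIR10A lay inside the interval of HOXB3, and its 5p strand was at chr17:48579904-48579926 on the minus strand. MIR10B lay between HOXD8 and HOXD4 on chromosome 2, with its 3p strand at chr2:176150368-176150389 on the plus strand. The same mature miR-196a-5p came from 2 genes, MIR196A1 between HOXB9 and HOXB13 (chr17:48632532-48632553, minus strand) and MIR196A2 between HOXC10 and HOXC9 (chr12:53991762-53991783, plus strand), and its probe cannot separate them. MIR196B lay between HOXA9 and HOXA10, with its 5p strand at chr7:27169528-27169549 on the minus strand. MIR615 lay inside the intervals of HOXC4 and HOXC5, and its 3p strand was at chr12:54034010-54034031 on the plus strand.

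All 8 miRNAs were detected on all 6 arrays, where detection means a signal above the mean of the array's blank spots plus 2 SD. Of the 2565 probes on the array, 1282 met this on all 6 arrays. Across the 8 miRNAs and 6 arrays, the signals lay between 10.7 and 2823 blank SDs above the blank mean, so that none was near the limit. As deposited, on a linear scale with the median of the detected miRNAs set to 25 on each array, miR-10a-5p had an intensity of 6557 ± 514 in control cells and 5440 ± 1157 with TGF-β (SD, n = 3 each). The deposited intensity of miR-10b-5p was 5444 ± 590 in control cells and 4710 ± 968 with TGF-β, and that of miR-10a-3p was 475 ± 79.4 and 382 ± 65.8. For miR-196a-5p it was 5825 ± 814 in control cells and 5703 ± 1298 with TGF-β, and for miR-196b-5p it was 758 ± 80.8 and 710 ± 109. The other strands had deposited control means of 84.3 ± 2.52 for miR-615-5p, 42.7 ± 3.51 for miR-615-3p and 38.3 ± 8.33 for miR-10b-3p. Probes differ in labeling and binding, so intensities are compared here between arrays for the same miRNA and not between miRNAs.

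To find whether TGF-β changed these miRNAs, the arrays were compared on the log2 scale after blank subtraction and quantile normalization. miR-10b-5p and miR-10a-5p, the guide strands made from the HOXD and HOXB clusters, were lower with TGF-β, to 0.768 and 0.755 of their control level. The other 6 miRNAs also had values below their control means, by log2 changes between -0.45 and -0.16, but did not pass the test. So 2 of 8 were called lower at an adjusted p under 0.05 by limma, where 1.37% of all 1457 tested miRNAs were called lower and 3.98% were called in either direction. The calls for both miR-10 guides depended on the processing.

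The normalized log2 signals of miR-10b-5p were 10.42, 10.48 and 10.33 in control replicates 1, 2 and 3, and 10.02, 10.05 and 10.02 in the TGF-β replicates. The TGF-β arrays lay close together, and all 3 were below the lowest control array, by 0.29 or more. The log2 change was -0.38 ± 0.057 (SE, n = 3 per group), a fold of 0.768 with a 95% confidence interval from 0.703 to 0.838 and an adjusted p of 0.00294 by limma. The call held with each array left out in turn, where the adjusted p ranged from 0.00257 to 0.0313. It was lost with median scaling in place of quantile normalization (log2 change -0.33, adjusted p = 0.119), with the deposited values (-0.22, adjusted p = 0.876) and without normalization (-0.35, adjusted p = 0.672), as well as, at the same log2 change of -0.38, with limma fitted with no intensity trend (adjusted p = 0.149) and with the methods' t-test (adjusted p = 0.0647). With the local background of each spot, removed by normexp with an offset of 50 and so differing in both the source and the method of correction, the value turned to 0.23 (adjusted p = 0.992).

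The normalized log2 signals of miR-10a-5p were 10.81, 10.71 and 10.59 in the control replicates and 10.42, 10.33 and 10.14 in the TGF-β replicates. The groups did not overlap, although the arrays within each group were further apart than for miR-10b-5p. The log2 change was -0.40 ± 0.080 (SE), a fold of 0.755 with a 95% confidence interval from 0.668 to 0.854 and an adjusted p of 0.0148 by limma. With 1 array left out the log2 change stayed between -0.46 and -0.33, and the call changed. It held without control replicate 3 (adjusted p = 0.0141) or TGF-β replicate 1 (adjusted p = 0.0195) and was lost in limma without control replicate 1 (log2 change -0.35, adjusted p = 0.0728), control replicate 2 (-0.40, 0.108), TGF-β replicate 2 (-0.42, 0.0794) or TGF-β replicate 3 (-0.33, 0.0633). It held with median scaling (log2 change -0.39, adjusted p = 0.0368) and was lost with the deposited values (-0.29, adjusted p = 0.749) and without normalization (-0.41, adjusted p = 0.489), while local background with normexp turned the value to 1.06 (adjusted p = 0.990). At the same log2 change of -0.40 it was also lost with all probes tested (adjusted p = 0.230), a floor of 4 (0.154), limma fitted with no trend (0.230) and the methods' t-test (0.210).

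The 3p strand of the miR-10a precursor, miR-10a-3p, had normalized log2 signals of 6.69, 6.97 and 7.06 in the control replicates and 6.36, 6.42 and 6.61 in the TGF-β replicates. Its log2 change of -0.45 ± 0.11 (SE) was the farthest from 0 of the 8, but the arrays were more spread, and limma gave an adjusted p of 0.0546, short of the threshold. Without control replicate 1, whose value was the lowest of its group, the log2 change was -0.55 and the adjusted p was 0.0206. Without each of the other 5 arrays it was not called, with adjusted p from 0.0664 to 0.230 and a log2 change from -0.52 to -0.37. Its log2 change was -0.31 with the deposited values and -0.04 with local background. miR-10b-3p had normalized log2 signals from 2.96 to 3.51 in the control arrays and from 3.03 to 3.19 in the TGF-β arrays. Its groups overlapped, control replicate 1 being below all TGF-β arrays, and its log2 change was -0.18 ± 0.17 (SE, adjusted p = 0.713 by limma). Without control replicate 1 it was -0.34 (adjusted p = 0.355 by limma), and without control replicate 3 it was -0.06 (adjusted p = 0.919). It was -0.06 without background correction, -0.05 with the deposited values and 0.02 with local background.

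The miR-196 guides had smaller values. The normalized log2 signals of miR-196a-5p, a miRNA often studied in pancreatic cancer, were 10.44, 10.64 and 10.54 in the control replicates and 10.30, 10.42 and 10.42 in the TGF-β replicates. The lowest control array and the highest TGF-β array were 0.018 apart, and the log2 change was -0.16 ± 0.065 (SE, adjusted p = 0.293 by limma), which became -0.05 with the deposited values and -0.996 with local background. The normalized log2 signals of miR-196b-5p were 7.60, 7.69 and 7.55 in the control replicates and 7.36, 7.24 and 7.48 in the TGF-β replicates. These groups also lay apart, with a log2 change of -0.25 ± 0.084 (SE, adjusted p = 0.173 by limma), which became -0.10 with the deposited values and -0.44 with local background.

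Both strands of miR-615 were below their control means on every TGF-β array, and neither passed the test. miR-615-5p had normalized log2 signals of 4.51, 4.39 and 4.40 in the control replicates and 4.01, 4.23 and 4.09 in the TGF-β replicates, a log2 change of -0.32 ± 0.11 (SE, adjusted p = 0.217 by limma). It was -0.16 without background correction, -0.20 with the deposited values and -0.10 with local background. miR-615-3p ranged from 3.31 to 3.58 in the control arrays and from 3.15 to 3.23 in the TGF-β arrays, a log2 change of -0.25 ± 0.13 (SE, adjusted p = 0.455 by limma). For this strand the value was -0.08 without background correction, -0.15 with the deposited values and -0.02 with local background.

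**Figure D1:**
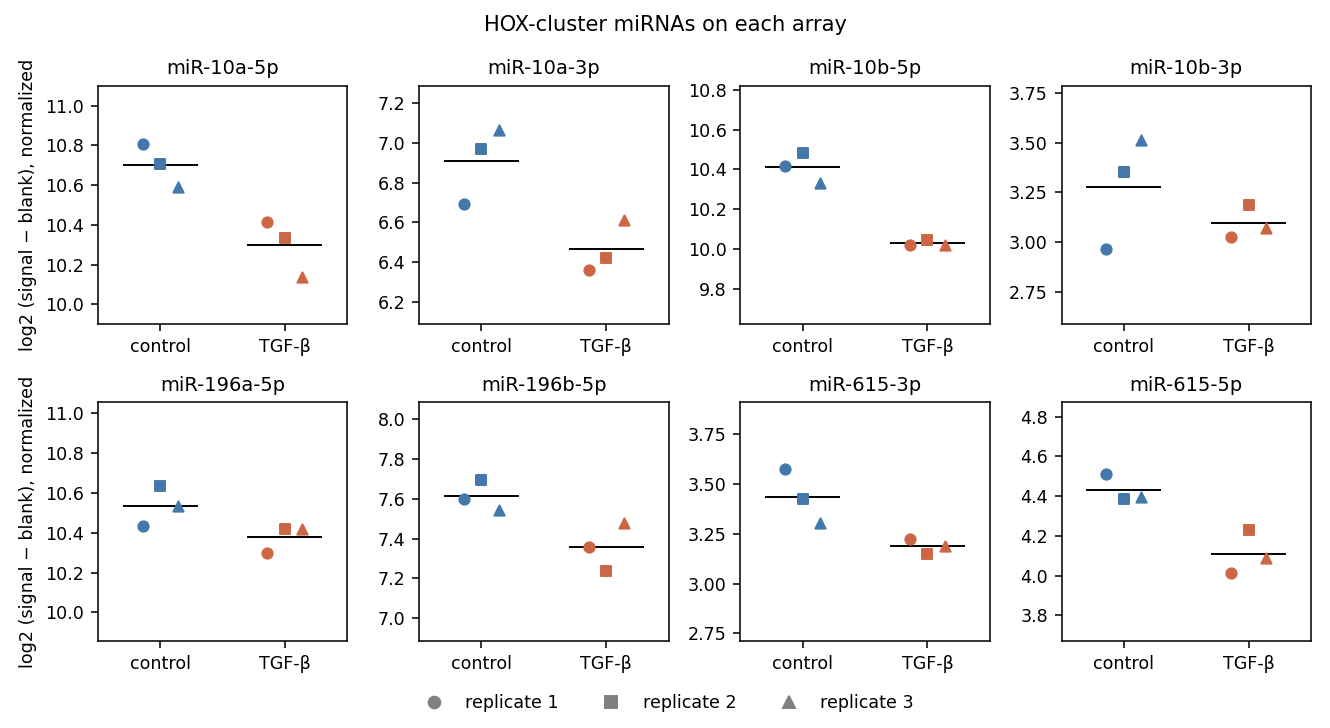
Normalized log2 signal of each HOX-cluster miRNA on each array, in 1 panel per miRNA with axes of equal height; symbols mark the replicates and black lines the group means (n = 3 per group). The TGF-β arrays lie below all control arrays in 7 of the 8 panels, the exception being miR-10b-3p.

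For 7 of the 8 miRNAs every TGF-β array was below every control array, the pattern that 10.1% of 1455 tested miRNAs with a value on all arrays also had. In a 2-sided exact permutation test over the 6 arrays each of these 7 had p = 0.1, the smallest value that 3 arrays against 3 allow, and miR-10b-3p had p = 0.4. The median log2 change of the 8 miRNAs was -0.29, and that of all 1457 tested miRNAs was -0.013. All 8 had a log2 change below 0, as did 52.5% of those tested, and 6 of the 8 had an unadjusted p under 0.05 in this direction, against 6.38%. These counts depended on the processing. Groups lay apart for 4 of the 8 with median scaling and for 2 without normalization. The number was 0 with the deposited values and 0 with local background by normexp. The share of all tested miRNAs with groups apart in these settings is not given here, so these counts have no background beside them. By limma, the number of the 8 with an unadjusted p under 0.05 in either direction was, in the same order, 4, 2, 0 and 0. In the same order, 178, 109, 129 and 34 of all tested miRNAs had an unadjusted p under 0.05 by limma in either direction. These counts hold both directions, unlike the 6.38%, which is for lower values only. The tested miRNAs numbered 1457, or 1446 with the deposited values, and their median log2 change was 0.015, -0.0090, 0.11 and -0.0044. A log2 change below 0 was found for all 8 with median scaling, without normalization and in the deposited values, and for 5 of the 8 with local background. The share of all tested miRNAs below 0 in these settings is not given here.

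The 5p strands of miR-10a, miR-10b, miR-196a and miR-196b were among the brightest 146 of the 1457 tested miRNAs, so their change was set beside that of probes of like brightness. These 146 miRNAs, with mean log2 signals from 7.49 to 15.44, had a median log2 change of -0.024, and 54.1% were below 0. Quantile normalization gives all arrays the same distribution of values, which holds such a median near 0. This comparison therefore cannot show whether bright probes were shifted. The pooled SD within groups on the log2 scale ran from 0.054 for miR-10b-5p to 0.21 for miR-10b-3p, and the median of the 1282 miRNAs detected on all arrays was 0.19. The median SE of the 146 brightest was 0.074, against 0.057 for miR-10b-5p, 0.065 for miR-196a-5p, 0.080 for miR-10a-5p and 0.084 for miR-196b-5p.

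**Figure D2:**
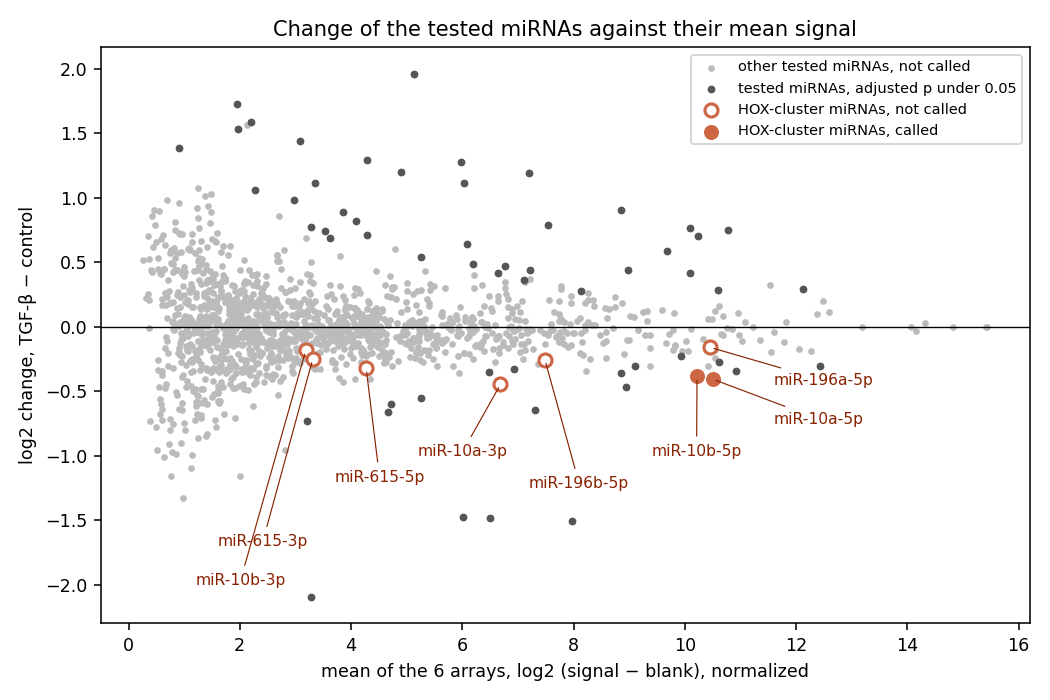
Log2 change with TGF-β (y axis) against the mean normalized log2 signal of the 6 arrays (x axis) for the 1457 tested miRNAs, of which 58 were called (dark points, and filled circles for miR-10a-5p and miR-10b-5p). All 8 HOX-cluster miRNAs (circles) lie between -0.45 and -0.16.

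The values on single arrays showed where the deposited values and the quantile-normalized values part. In the deposited values TGF-β replicate 2 was the highest of the 3 TGF-β arrays for all 8 miRNAs, and it was below the control mean for 1 of the 8, whereas TGF-β replicates 1 and 3 were below it for all 8. For miR-10a-5p the deposited intensities were 6242, 7150 and 6279 in the control replicates and 4809, 6776 and 4736 in the TGF-β replicates. This array had the largest factor used to scale an array to its median, 4.78 against 3.37 to 4.31 for the other control and TGF-β arrays, and the most detected miRNAs, 1787. The deposited values also moved the median log2 change of all tested miRNAs to 0.11, and relative to it the changes were -0.40 for miR-10a-5p, -0.33 for miR-10b-5p and -0.42 for miR-10a-3p. With TGF-β replicate 2 left out, an alternative chosen after seeing the data, the deposited values gave log2 changes of -0.46 for miR-10a-5p (adjusted p = 0.211 by limma) and -0.38 for miR-10b-5p (adjusted p = 0.405), and none of the 8 was called.

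Local background, removed by normexp with an offset of 50, moved the values of these miRNAs in different ways. Around the spots of the 8 miRNAs the local background was between 0.271 and 1.17 of the spot's own signal, and in 6 of the 48 spots it exceeded it. The 95% confidence interval of the log2 change then ran from -1.66 to 3.79 for miR-10a-5p, from -2.84 to 3.31 for miR-10b-5p and from -2.88 to 0.89 for miR-196a-5p. For other strands the SE became smaller, from 0.17 to 0.027 for miR-10b-3p, from 0.13 to 0.031 for miR-615-3p and from 0.11 to 0.047 for miR-615-5p. These have dim spots, where an added offset makes log2 differences and their SE smaller, so the smaller SE is no gain in precision. No miRNA was called by limma among the 1457 tested with this correction, in which the parts of the background source, normexp and the offset were not separated, and 34 had an unadjusted p under 0.05. The correlation between arrays over 1282 miRNAs was 0.639 to 0.971 with local background and 0.984 to 0.992 with blank spots.

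**Figure D3:**
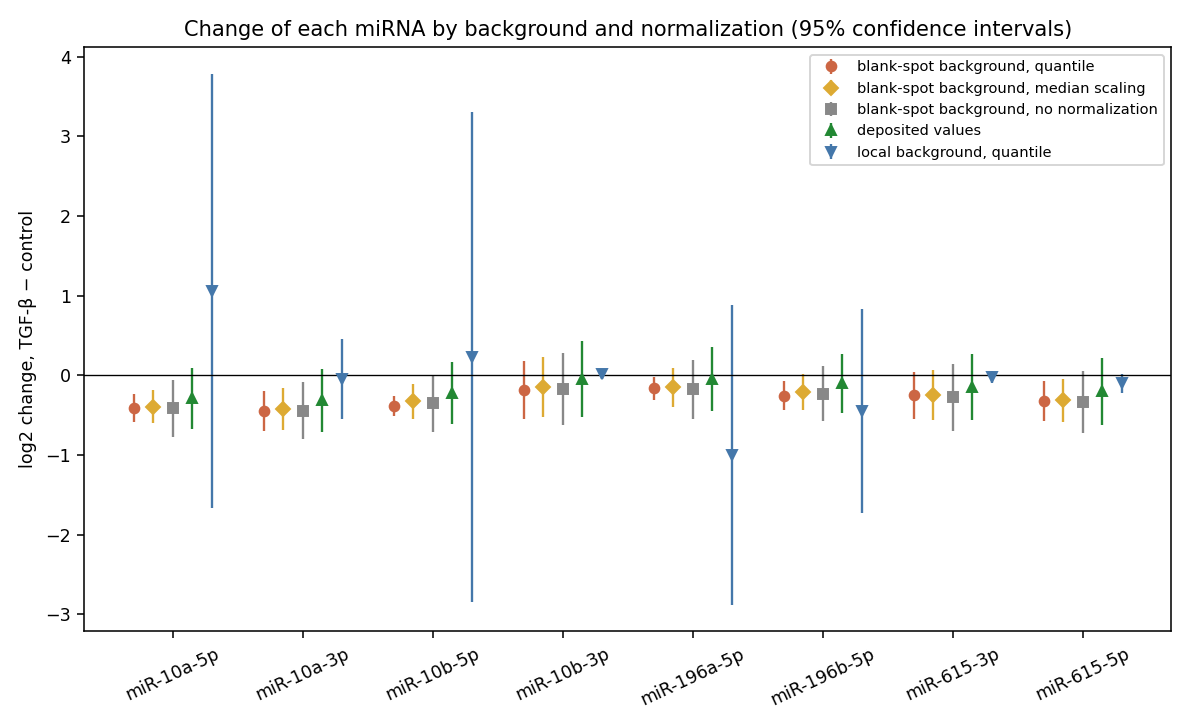
Log2 change with TGF-β of each HOX-cluster miRNA under 5 ways to treat the background and the normalization, with 95% confidence intervals from limma (n = 3 per group). With blank-spot background or the deposited values all 8 lie below 0, and with local background (normexp) the intervals of the miR-10 and miR-196 5p strands widen, those of miR-10b-3p and miR-615 narrow, and miR-10a-5p moves to 1.06.

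**Figure D4:**
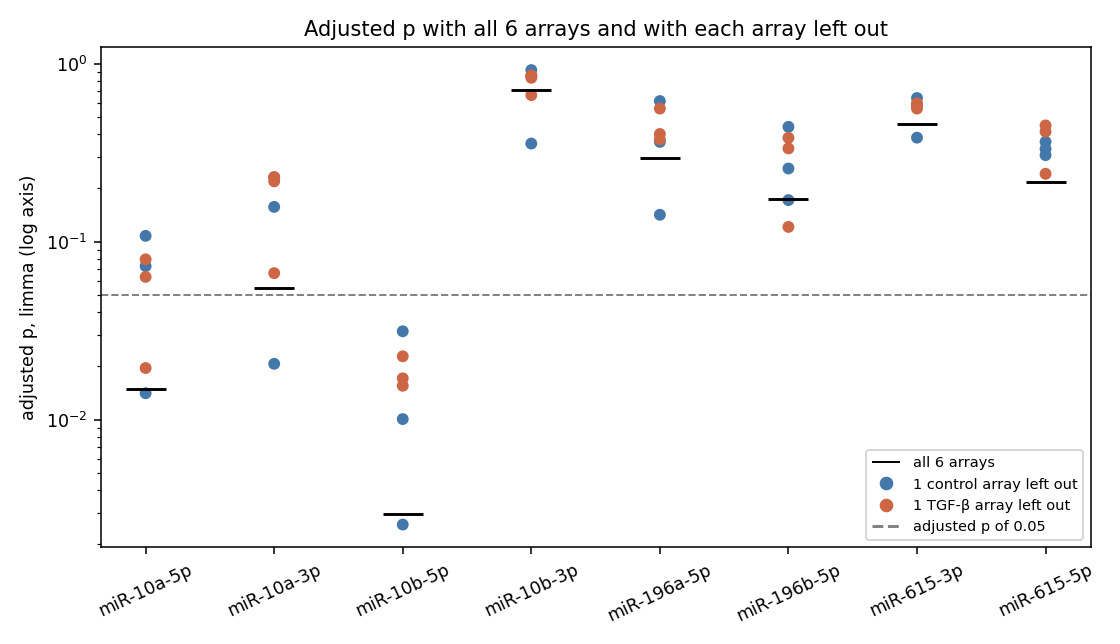
Adjusted p by limma (log axis) for each HOX-cluster miRNA with all 6 arrays (black bars) and with 1 array left out (points; blue, a control array; orange, a TGF-β array). Only miR-10b-5p stays under 0.05 (dashed line) in every case, with values from 0.00257 to 0.0313.

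Next, paralogs and strands of a precursor were compared by the difference of their log2 signals within each array, for 5 pairs. The change of miR-10a-5p minus that of miR-10b-5p was -0.02 (exact permutation p = 1, 2-sided), with an SD within groups of 0.12. The change of miR-196a-5p minus that of miR-196b-5p was 0.10 with an SD of 0.11 (exact permutation p = 0.6). For the strands, the difference was 0.04 for miR-10a-5p minus miR-10a-3p, -0.20 for miR-10b-5p minus miR-10b-3p and 0.07 for miR-615-3p minus miR-615-5p, with SDs of 0.29, 0.23 and 0.12. After adjustment over the 5 pairs every exact permutation p was 1. With 3 arrays against 3 this exact test cannot go below 0.1, so it could not pass the threshold whatever the values, and its outcome does not show that the changes within a pair were alike.

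Of the other strands of the same precursors, miR-196a-3p was detected on all 6 arrays and had a log2 change of -0.38 ± 0.18 (SE, adjusted p = 0.371 by limma), which became -0.09 without background correction and -0.03 with local background, while miR-196b-3p was detected on 1 array and was not tested. A further pair of miRNAs inside HOX clusters, miR-7704 in the interval of HOXD1 and miR-3185 between HOXB9 and HOXB13, was added after the values were seen. Their log2 changes were -0.06 ± 0.082 and -0.04 ± 0.15 (SE, adjusted p = 0.832 and 0.958 by limma), so that neither was called, and they were below 0 in 14 and 15 of the 19 alternatives.

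The relatives of miR-10 by sequence, encoded outside the HOX clusters with let-7 genes, had values on the other side of 0. All 5 of these, miR-99a-5p, miR-99b-5p, miR-100-5p, miR-125a-5p and miR-125b-5p, had a log2 change above 0, as did 47.5% of the 1457 tested miRNAs, and 3 rose by limma, where 2.61% of those tested were called higher. The log2 change was 0.71 ± 0.053 for miR-99a-5p (SE, adjusted p = 1.03e-05), 0.75 ± 0.055 for miR-100-5p (adjusted p = 1.03e-05) and 0.77 ± 0.079 for miR-125b-5p (adjusted p = 0.000132). They were above 0 in all 19 alternatives and were called in 18, 17 and 15 of them, local background being among those that lost each call. With it the log2 change was 0.99 ± 1.09 (SE) for miR-99a-5p, 0.26 ± 1.09 for miR-100-5p and 0.98 ± 1.40 for miR-125b-5p.

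Of 9 let-7 and miR-98 guides, 8 carry the miR-196 seed shifted by a base, and let-7e-5p does not. None of the 9 was called by limma in either direction, and their median log2 change was -0.02. The values ran from -0.19 ± 0.054 (SE) for let-7f-5p (adjusted p = 0.099) to 0.12 ± 0.055 for let-7c-5p (adjusted p = 0.367). Without control replicate 1, let-7f-5p was called lower (log2 change -0.23, adjusted p = 0.0341 by limma). The directions depended on the processing: 7 of the 9 were below 0 here, but 0 with median scaling or the deposited values and 1 without normalization or with local background. In the order named, the median log2 change of all tested miRNAs in these alternatives was 0.015, 0.11, -0.0090 and -0.0044. The share of all tested miRNAs below 0 is not given for them. The log2 change of let-7f-5p turned to 0.12 with median scaling, 0.10 without normalization, 0.22 with the deposited values and 0.85 with local background.

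**Figure D5:**
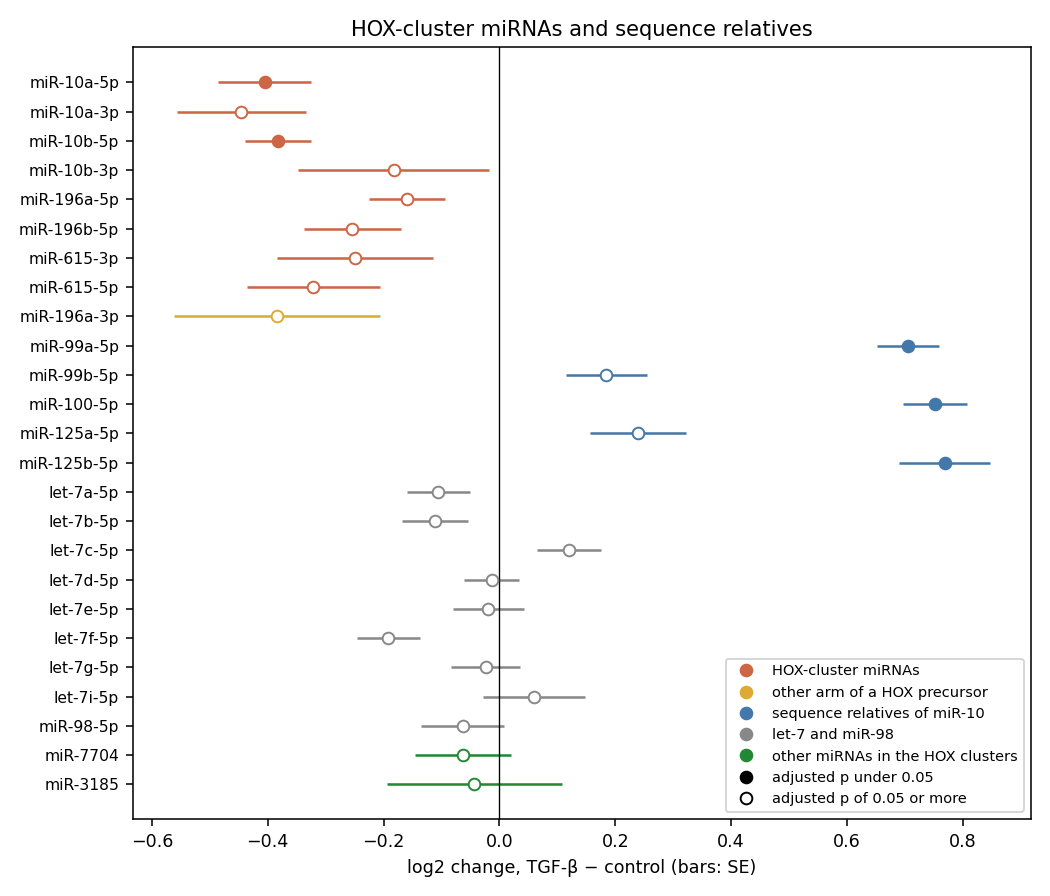
Log2 change with TGF-β (bars, SE) of the HOX-cluster miRNAs, the other strand of a HOX precursor, the sequence relatives of miR-10, let-7 with miR-98, and further miRNAs in the HOX clusters; filled circles have an adjusted p under 0.05 by limma. The miR-10 strands lie between -0.45 and -0.18, and miR-99a-5p, miR-100-5p and miR-125b-5p between 0.71 and 0.77.

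Across the 6 arrays, the miRNAs with the pattern most like that of each HOX-cluster miRNA were sought among the other 1281 detected on all arrays, by Pearson's r of the normalized log2 signals. These are the highest of many values over few arrays and are given as a description. For miR-10b-5p they were miR-128-3p (r = 0.981), miR-133b (r = 0.979) and miR-425-5p (r = 0.975), of which miR-133b fell by 1.48 on the log2 scale (adjusted p = 2.44e-06 by limma) and miR-425-5p by 0.27 (adjusted p = 0.0164). For miR-10a-5p they were miR-331-3p (r = 0.985), miR-339-5p (r = 0.970) and miR-8078 (r = 0.969), none of them called. For miR-10a-3p the closest was miR-4640-5p (r = 0.982), for miR-10b-3p miR-576-3p (r = 0.988), for miR-196a-5p miR-191-3p (r = 0.955) and for miR-196b-5p miR-4751 (r = 0.967). For miR-615-5p it was miR-8052 (r = 0.988) and for miR-615-3p miR-16-5p (r = 0.963). After quantile normalization miR-16-5p fell by 0.30 on the log2 scale (adjusted p = 0.0117 by limma). Its deposited values overlapped between the groups. They were 20890, 23451 and 22927 in the control replicates and 20247, 26309 and 20596 in the TGF-β replicates.

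Markers of other pancreatic and non-pancreatic cell types were looked up for detection, to check the label of the cells. Of the acinar miRNAs, miR-216b-5p and miR-217 were detected on none of the 6 arrays and miR-216a-5p on 2, and the islet miRNA miR-375 was detected on 1. Of the 5 blood cell miRNAs, miR-142-3p was detected on all 6 arrays with deposited values from 6 to 26 and miR-451a on 5 arrays with values up to 18, and the others on 2 to 4 arrays. The hepatocyte miRNA miR-122-5p was detected on 3 arrays and the neuronal miR-124-3p on 2. Of the 6 epithelial miRNAs, miR-200a-3p and miR-200b-3p were detected on all 6 arrays, with log2 changes of 0.22 ± 0.24 and -0.01 ± 0.15 (SE, adjusted p = 0.767 and 0.993 by limma), while miR-141-3p was detected on none, miR-200c-3p and miR-205-5p on 1 each and miR-429 on 3. miR-21-5p, miR-16-5p and let-7a-5p, abundant in most cells, were detected on all 6 arrays. The part of other cells in the changes of the HOX-cluster miRNAs was not tested.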

How the data were processed

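Per array, the deposited scanner file gives a linear intensity for every spot and for its surroundings, and the authors also supplied a table of processed intensities. Blank subtraction (mean of the blank spots, 5% left out at each end), a detection limit of 2 SD and scaling to a median of 25 rebuilt that table to the nearest whole number. The sources used here do not name its method.

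Here the blank mean was subtracted, values under 1 were set to 1, and log2 values were quantile normalized over 2565 miRNA probes. A miRNA was tested where all arrays of a group, or of both, detected it (1457 miRNAs), with limma 3.58.1 (intensity trend) in R 4.3.3, with Benjamini-Hochberg adjustment over all of them, and the fit was tested on simulated data, where many changed probes made quantile normalization move bright unchanged probes below 0 and limma then called some of them (the values of miR-10a-5p and miR-10b-5p without this normalization stand beside their calls). Of them, 58 were called, 20 lower and 38 higher; the split was 8 and 27 without normalization and 4 and 27 with the deposited values. Blank spots were preferred because local background rose with the spot's own signal. The number of arrays limits the precision. Single values were compared by exact permutation. Figures were drawn with matplotlib 3.10.9 in Python 3.11.15.

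Alternatives changed the background, normalization, filter, detection limit, floor, test, replicate block and arrays used. The text names the 8 HOX-cluster miRNAs, their listed relatives with an adjusted p under 0.05 or otherwise the largest rise and fall, and the 3 most similar miRNAs or the closest. The background, normalization and test behind the calls were chosen with earlier results of these data known, as were the lists of relatives. The 8 HOX-cluster miRNAs were picked by name and not by their values.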

Additional observations from a re-analysis of the deposited data

How the results depend on the processing

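The count of 2 called HOX-cluster miRNAs, and of 58 among all tested, stayed the same or within 1.5 times without background correction, with detection on all 6 arrays and with a limit of 3 SD. Of the HOX-cluster miRNAs, 1 was called with median scaling (miR-10a-5p), with all probes tested (miR-10b-5p, 20 called in all) and with a floor of 4 (miR-10b-5p, 33 in all). None was called with local background by normexp (0 in all, 34 at an unadjusted p under 0.05), without normalization (35), with the deposited values (31; 14 without TGF-β replicate 2), with the methods' t-test (17 after Benjamini-Hochberg, 194 before) and with limma without the trend (32). With 1 array left out, 1 or 2 of the 8 and 33 to 49 in all were called. The number with groups apart, 7, became 4 with median scaling, 2 without normalization, 0 with the deposited values (4 without TGF-β replicate 2) and 0 with local background. With quantile normalization 10.1% of 1455 tested miRNAs had this pattern, and their share in the alternatives is not given here.

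Local background turned the log2 change of miR-10a-5p to 1.06, of miR-10b-5p to 0.23 and of miR-10b-3p to 0.018. It turned the differences within pairs to 0.83 (miR-10a-5p minus miR-10b-5p), -0.55 (miR-196a-5p minus miR-196b-5p) and 0.21 (miR-10b-5p minus miR-10b-3p), and moved miR-10a-5p minus miR-10a-3p from 0.04 to 1.11. The difference miR-10a-5p minus miR-10a-3p turned to -0.025 without background correction and to -0.031 with the deposited values without TGF-β replicate 2, where miR-196a-5p minus miR-196b-5p was -0.020. With 1 array left out, miR-10a-5p minus miR-10b-5p ranged from -0.087 to 0.051, miR-10a-5p minus miR-10a-3p from -0.093 to 0.20, miR-10b-5p minus miR-10b-3p from -0.36 to -0.039, miR-196a-5p minus miR-196b-5p from 0.015 to 0.14 and miR-615-3p minus miR-615-5p from 0.0045 to 0.15. The causes were not tested. The deviations of same-numbered arrays correlated with r of 0.13, 0.11 and -0.03 with blank spots and 0.30, 0.48 and 0.25 with local background; the numbers were not taken as pairs, since with blank spots 1 of the 3 values was under 0.1; with the replicate block 3 of the 8 (miR-10a-3p too, adjusted p = 0.0185 by limma) and 60 in all were called.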
